A study of Mus musculus with 6 samples.

Results

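The ligands and receptors of the transforming growth factor beta (TGF-beta) and bone morphogenetic protein (BMP) pathways were examined in lung tissue of GRdim/dim and GR+/+ mice. They were chosen by gene symbol from the deposited count data and comprise 10 of 54532 genes, namely the TGF-beta ligands Tgfb1, Tgfb2 and Tgfb3, the TGF-beta receptors Tgfbr1, Tgfbr2 and Tgfbr3, the BMP ligands Bmp4 and Bmp6, and the BMP receptors Bmpr2 and Acvrl1. GRdim/dim mice carry a point mutation in both copies of the glucocorticoid receptor (GR) gene Nr3c1, which impairs the formation of GR homodimers in every cell of the animal and which counts per gene cannot show. The controls were GR+/+ littermates, and both genotypes had the mixed background 129/SvEv x C57BL/6. All animals were young adults of either sex and underwent hemorrhagic shock (HS) under anesthesia and mechanical ventilation, followed by re-transfusion and several hours of resuscitation with colloids and norepinephrine. No lungs without HS were sequenced, so every difference given here is one between genotypes after HS. One library of poly(A)-captured RNA was made from the lung of each of 3 mice per genotype.

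TGF-beta and BMP ligands are secreted dimers that bind pairs of type I and type II serine/threonine kinase receptors on the cell surface. The receptors then phosphorylate SMAD transcription factors, SMAD2 and SMAD3 downstream of TGF-beta and SMAD1, SMAD5 and SMAD9 (also called SMAD8) downstream of BMP, which enter the nucleus with SMAD4. In the lung, TGF-beta is best known for fibrosis and for raising the permeability of the alveolar wall in acute injury, whereas BMP signaling through BMPR2 and ACVRL1 (ALK1) keeps pulmonary endothelial cells quiescent.

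The libraries summed to 16361747 to 32082940 counts in GR+/+ and to 15687734 to 24444604 counts in GRdim/dim. All 10 ligands and receptors passed the filter on low counts, and 16568 genes in all were tested. Levels are given as CPM, counts normalized to library totals of 1000000 after TMM scaling, and differences as log2 fold changes of GRdim/dim against GR+/+ with the standard error (SE) of the edgeR quasi-likelihood fit. DEGs were genes with a Benjamini-Hochberg adjusted p-value under 0.05 over all genes tested whose absolute log2 fold change exceeded 0.5. The smallest two-sided p-value that an exact permutation test of 3 against 3 libraries can give is 0.1. Each library came from its own mouse, so that p-values refer to the spread between mice.

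The BMP ligands Bmp4 and Bmp6 and the BMP receptor Acvrl1 were lower in GRdim/dim than in GR+/+ lungs in every library, while Tgfb1, Tgfb2, all 3 TGF-beta receptors and Bmpr2 overlapped between genotypes. None of the 10 genes was a DEG by edgeR, where 0.169% of all genes tested were DEGs. Of the 10, 3 were lower with an unadjusted p-value under 0.05 (Bmp6, Bmp4 and Acvrl1) and 0 were higher, against 4.68% and 4.91% of all genes tested. No overlap between GRdim/dim and GR+/+ libraries was seen for 4 of the 10, the same 3 and Tgfb3, all of them lower in GRdim/dim, compared with 7.05% of all genes tested that lay lower in this way. With DESeq2, Bmp4 and Bmp6 passed the same thresholds, as did 0.879% of the 16150 genes with a DESeq2 adjusted p-value in this direction. The median log2 fold change was -0.07 over the 10 genes and 0.01 over all genes tested. The 10 genes were chosen with earlier results of these data known, so these counts and shares are a description and not independent evidence. In whole lung tissue, fewer cells of a type and less RNA per cell cannot be told apart.

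**Figure D1:**
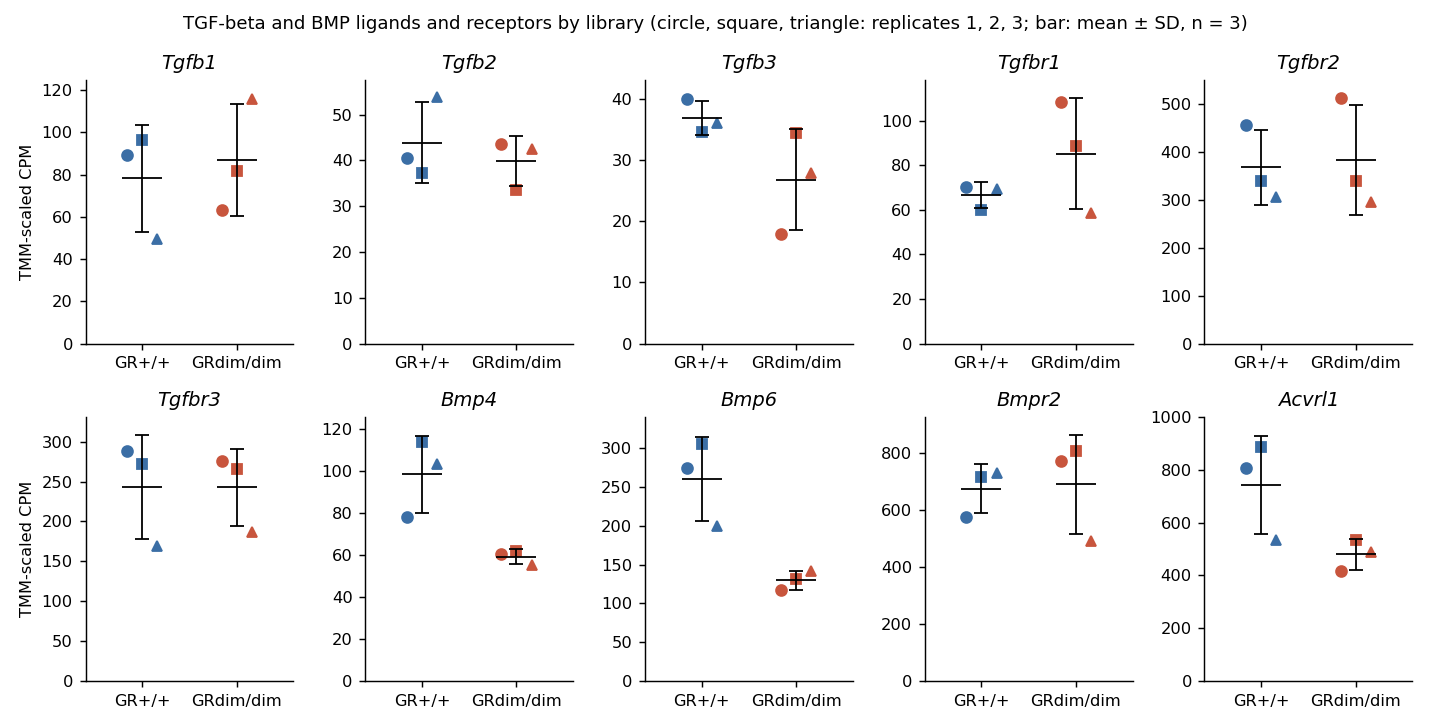
TMM-scaled CPM of each ligand and receptor in each library, with GR+/+ in blue and GRdim/dim in red, replicates 1, 2 and 3 as circle, square and triangle, and the mean ± SD (n = 3) as black bars. Bmp4, Bmp6 and Acvrl1 lie lower in all GRdim/dim libraries, with GR+/+ replicate 3 of Acvrl1 at the level of GRdim/dim replicate 2, and the other genes overlap or, for Tgfb3, nearly touch.

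Bmp6 encodes a BMP ligand that is made by endothelial cells and is also a regulator of iron metabolism. Its gene lies on chromosome 13 (38345107 to 38500302, GRCm38). Bmp6 had 274, 306 and 200.3 CPM in GR+/+ replicates 1, 2 and 3 and 117, 131 and 142 CPM in GRdim/dim replicates 1, 2 and 3. The lowest GR+/+ library was thus above the highest GRdim/dim library, and the GRdim/dim libraries were close to each other. Bmp6 averaged 260.1 ± 54.2 CPM in GR+/+ and 129.9 ± 12.5 CPM in GRdim/dim (SD, n = 3). The log2 fold change was -1.002 (SE 0.20, 95% confidence interval -1.44 to -0.57). Its unadjusted p-value of 0.000403 ranked 67 among all genes tested, and the adjusted p-value was 0.0997 by edgeR and 0.00112 by DESeq2. The last exon of Bmp6 shares 224 bases with the disulfide isomerase gene Txndc5 on the opposite strand, and whether reads were counted by strand is not given in the sources used here. Txndc5 itself had a log2 fold change of 0.10 (SE 0.17).

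Bmp4, a ligand known for its part in lung branching and in vascular and mesenchymal cells, lies on chromosome 14 (46383520 to 46390669, GRCm38, minus strand). It had 78.3, 114 and 104 CPM in GR+/+ replicates 1, 2 and 3 and 60.8, 61.8 and 55.2 CPM in GRdim/dim replicates 1, 2 and 3. GR+/+ replicate 1 was nearest to the GRdim/dim libraries, which again spread little. Mean Bmp4 was 98.6 ± 18.2 CPM in GR+/+ and 59.3 ± 3.55 CPM in GRdim/dim (SD, n = 3). The difference was -0.73 on the log2 scale (SE 0.18, 95% confidence interval -1.13 to -0.34), with an unadjusted p-value of 0.00193 in the edgeR fit. After adjustment the p-value was 0.202 by edgeR and 0.0422 by DESeq2.

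Acvrl1 encodes ALK1, the endothelial type I receptor for BMP9 and BMP10, mutated in a form of hereditary hemorrhagic telangiectasia. The gene is on chromosome 15 (101128522 to 101145336, GRCm38). Acvrl1 had 808, 887 and 535.5 CPM in GR+/+ replicates 1, 2 and 3 and 418, 534.9 and 489 CPM in GRdim/dim replicates 1, 2 and 3. GR+/+ replicate 3 and GRdim/dim replicate 2 were thus almost equal, and only GR+/+ replicates 1 and 2 stood well above all others. The means were 743 ± 184 CPM in GR+/+ and 481 ± 58.7 CPM in GRdim/dim (SD, n = 3). Acvrl1 had a log2 fold change of -0.63 (SE 0.23, 95% confidence interval -1.13 to -0.13), an unadjusted p-value of 0.0191 and an adjusted p-value of 0.420 by edgeR and 0.185 by DESeq2. Without GR+/+ replicate 1, GR+/+ replicate 2 or GRdim/dim replicate 1 its unadjusted p-value was above 0.05, and the largest of the 3 was 0.0903. An antisense transcript, Gm16031, overlaps 127 exonic bases of Acvrl1, or 2.98% of its exons. Gm16031 had 61, 81 and 68 counts in GR+/+ and 26, 18 and 12 counts in GRdim/dim replicates 1, 2 and 3. Beside these, Acvrl1 had 13513, 14795 and 16858 counts in GR+/+ and 7761, 12877 and 7573 counts in GRdim/dim replicates 1, 2 and 3. Gm16031 itself had a log2 fold change of -1.85 (SE 0.45). Without a stated use of strand, the reads of this overlap cannot be told apart, and their part in the difference of Acvrl1 was not tested.

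Bmpr2, the type II BMP receptor mutated in heritable pulmonary arterial hypertension, overlapped between genotypes. It had 576, 715 and 730.4 CPM in GR+/+ replicates 1, 2 and 3 and 771, 806 and 490 CPM in GRdim/dim replicates 1, 2 and 3. The highest and the lowest library were both GRdim/dim. The log2 fold change was 0.03 (SE 0.23), with a 95% confidence interval of -0.48 to 0.54 that covers differences of either sign, and the adjusted p-value was 0.983 by edgeR.

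None of the TGF-beta ligands passed an unadjusted p-value of 0.05. Tgfb1, the most studied isoform in lung fibrosis and immune regulation, had 89.2, 96.2 and 49.3 CPM in GR+/+ replicates 1, 2 and 3 and 63.3, 81.8 and 116 CPM in GRdim/dim replicates 1, 2 and 3. Both the lowest value, in GR+/+ replicate 3, and the highest, in GRdim/dim replicate 3, were single libraries, and the log2 fold change of 0.15 (SE 0.28, 95% confidence interval -0.47 to 0.78) became -0.09 without the first and -0.11 without the second. Tgfb2, which acts in epithelial and mesenchymal development, had 40.5, 37.4 and 53.9 CPM in GR+/+ and 43.6, 33.6 and 42.4 CPM in GRdim/dim replicates 1, 2 and 3. Its log2 fold change was -0.14 (SE 0.20, 95% confidence interval -0.58 to 0.30), and the genotypes overlapped. Tgfb3, which is made mainly by mesenchymal cells, had 39.98, 34.53 and 36.12 CPM in GR+/+ and 17.95, 34.35 and 27.96 CPM in GRdim/dim replicates 1, 2 and 3. GRdim/dim replicate 2 thus lay just under the lowest GR+/+ library, and replicate 1 was far below the rest. The log2 fold change of Tgfb3 was -0.46 (SE 0.24, 95% confidence interval -0.99 to 0.07), with an unadjusted p-value of 0.0799 and an adjusted p-value of 0.586 by edgeR. It was -0.24 without GRdim/dim replicate 1 and -0.68 without GRdim/dim replicate 2, and the unadjusted p-value was 0.0211 in the latter case and 0.0413 without the filter on low counts.

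Of the TGF-beta receptors, Tgfbr1, the type I kinase also called ALK5, had 70.2, 59.95 and 69.5 CPM in GR+/+ replicates 1, 2 and 3 and 108, 88.6 and 58.7 CPM in GRdim/dim replicates 1, 2 and 3. GRdim/dim replicates 1 and 2 were above every GR+/+ library and replicate 3 was below all of them. The log2 fold change of Tgfbr1 was 0.36 (SE 0.22, 95% confidence interval -0.13 to 0.84), with an unadjusted p-value of 0.133 in the edgeR fit and of 0.00666 without GRdim/dim replicate 3. Tgfbr2, the type II kinase that binds the ligand first, had 457, 340 and 307 CPM in GR+/+ and 512, 340 and 296 CPM in GRdim/dim replicates 1, 2 and 3. Tgfbr3, or betaglycan, a co-receptor without kinase activity that presents TGF-beta2, had 288, 273 and 169 CPM in GR+/+ and 275, 266 and 187 CPM in GRdim/dim. For both, the spread within a genotype was many times the difference between the means. Their log2 fold changes were 0.06 (SE 0.25, 95% confidence interval -0.49 to 0.60) for Tgfbr2 and -0.00 (SE 0.24, 95% confidence interval -0.53 to 0.53) for Tgfbr3.

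**Figure D2:**
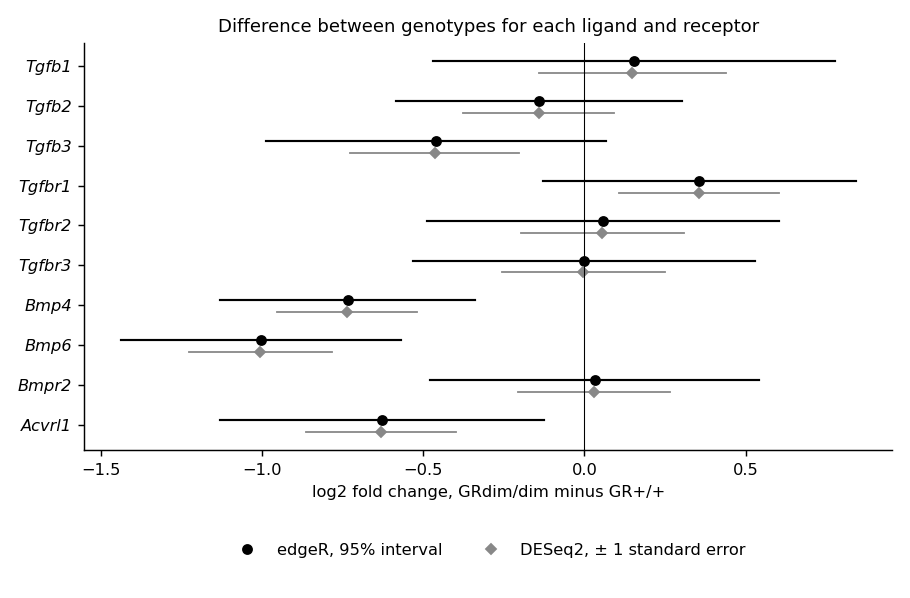
Log2 fold change of GRdim/dim against GR+/+ (x axis) for each ligand and receptor, with the 95% confidence interval of the edgeR fit in black and the DESeq2 estimate ± 1 SE in gray. The edgeR intervals of Bmp6 (-1.44 to -0.57), Bmp4 (-1.13 to -0.34) and Acvrl1 (-1.13 to -0.13) lie below 0, and the other 7 cross it.

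To compare genes with each other, CPM were divided by the gene length in kilobases that the authors deposited. Averaged over the 6 libraries, Acvrl1 had the highest level, with 144 ± 44.3 CPM per kilobase (SD, n = 6), followed by Bmp6 with 49.99 ± 20.4, Tgfbr2 with 45.8 ± 10.8, Bmpr2 with 37.9 ± 6.80, Tgfbr3 with 37.1 ± 7.83 and Bmp4 with 35.1 ± 10.9 CPM per kilobase. Tgfb1 was at 16.4 ± 4.70, Tgfbr1 at 11.6 ± 2.93, Tgfb3 at 9.40 ± 2.31 and Tgfb2 at 7.23 ± 1.19 CPM per kilobase. Of the 9 pairs of neighbors in this order, only Acvrl1 against Bmp6 and Bmp4 against Tgfb1 did not overlap between their libraries. The BMP ligands were therefore above the TGF-beta ligands in each library, by this measure. The order of the means was not the same in both genotypes. In GR+/+ Bmp6 was second, at 66.7 ± 13.9 CPM per kilobase (SD, n = 3), and in GRdim/dim, at 33.3 ± 3.20 CPM per kilobase (SD, n = 3), its mean was below those of Tgfbr2 (46.8), Bmpr2 (38.3) and Tgfbr3 (37.1). GRdim/dim replicate 3 differed from this, with Bmp6 (36.30 CPM per kilobase) above Tgfbr2 (36.17), Bmpr2 (27.2) and Tgfbr3 (28.6).

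The makeup of the ligand pool followed from these levels. Of the summed CPM per kilobase of the 5 ligands, Bmp6 took 40.4% to 49.6% in GR+/+ and 36.1% to 36.5% in GRdim/dim libraries, which did not overlap. The share of Tgfb1 was 7.69% to 12.5% in GR+/+ and 15.2% to 23.1% in GRdim/dim, again without overlap, although its own level overlapped between genotypes. The shares of Bmp4, Tgfb2 and Tgfb3 overlapped. Between Bmp4 and Bmp6 alone, Bmp6 made up 52.7% to 66.8% of the sum in GR+/+ and 52.5% to 59.6% in GRdim/dim, so that the ratio of the BMP ligands overlapped. These shares were chosen as a measure after the levels had been seen and were not tested.

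**Figure D3:**
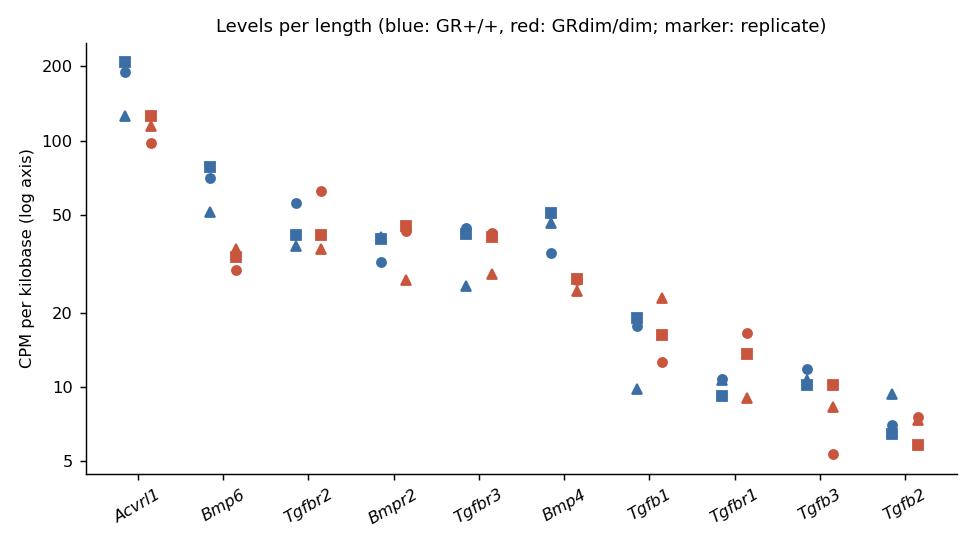
CPM per kilobase of gene length on a log axis for each ligand and receptor in order of its mean over the 6 libraries, with GR+/+ in blue and GRdim/dim in red and replicates 1, 2 and 3 as circle, square and triangle. Acvrl1 stands above all others, and the TGF-beta ligands and Tgfbr1 lie below Bmp4 in every library of either genotype.

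Bmp6 and Acvrl1 are known as genes of endothelial cells, so their levels were set beside 11 endothelial markers (Pecam1, Cdh5, Kdr, Tek, Tie1, Cldn5, Emcn, Ptprb, Vwf, Car4 and Plvap). All 11 were detected, and their summed level was 4027 to 5939 CPM in GR+/+ and 4667 to 5539 CPM in GRdim/dim libraries, with a log2 ratio of the means of -0.02. This ratio depended on Cldn5 and on Car4, which was also listed as a marker of alveolar macrophages. Without both, the sums were 4966, 5248 and 3500 CPM in GR+/+ and 3907, 4482 and 3627 CPM in GRdim/dim replicates 1, 2 and 3. Single markers differed in direction. Of the 11, 8 had a negative log2 fold change, among them Kdr with -0.50 (SE 0.21), while Cldn5 had 0.94 (SE 0.26) and Car4 0.72 (SE 0.25). None was a DEG by edgeR, whereas Cldn5 was higher in GRdim/dim by DESeq2 (adjusted p-value of 0.0273). Per 1000 CPM of all 11 markers, Bmp6 was at 49.5, 51.5 and 49.7 CPM in GR+/+ and at 25.0, 23.7 and 27.9 CPM in GRdim/dim replicates 1, 2 and 3. On this scale the GR+/+ libraries differed from each other by far less than in plain CPM, and the ratio of the GRdim/dim to the GR+/+ mean was 0.508. For Acvrl1 the values were 146, 149 and 133 CPM in GR+/+ and 89.7, 96.6 and 96.2 CPM in GRdim/dim, with a ratio of the means of 0.660. GR+/+ replicate 3, which was level with a GRdim/dim library in plain CPM, was clearly above all 3 on this scale. Bmp4 was at 14.2, 19.2 and 25.7 CPM in GR+/+ and at 13.02, 11.2 and 10.9 CPM in GRdim/dim. These 3 genes lay lower without overlap, and the other 7 overlapped, compared with 4.69% of all genes tested that lay lower without overlap on this scale. When Cldn5 and Car4 were left out of the markers, Bmp6 was at 55.2 to 58.3 CPM in GR+/+ and 29.3 to 39.0 CPM in GRdim/dim, and Acvrl1 at 153 to 169 CPM and 107 to 135 CPM. Bmp4 nearly touched there, at 15.78 to 29.6 CPM in GR+/+ and 13.8 to 15.55 CPM in GRdim/dim. Without Cldn5 and Car4 the ratio of the means was 0.575 for Bmp6, 0.665 for Bmp4 and 0.745 for Acvrl1. This scale was chosen after the levels had been seen.

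**Figure D4:**
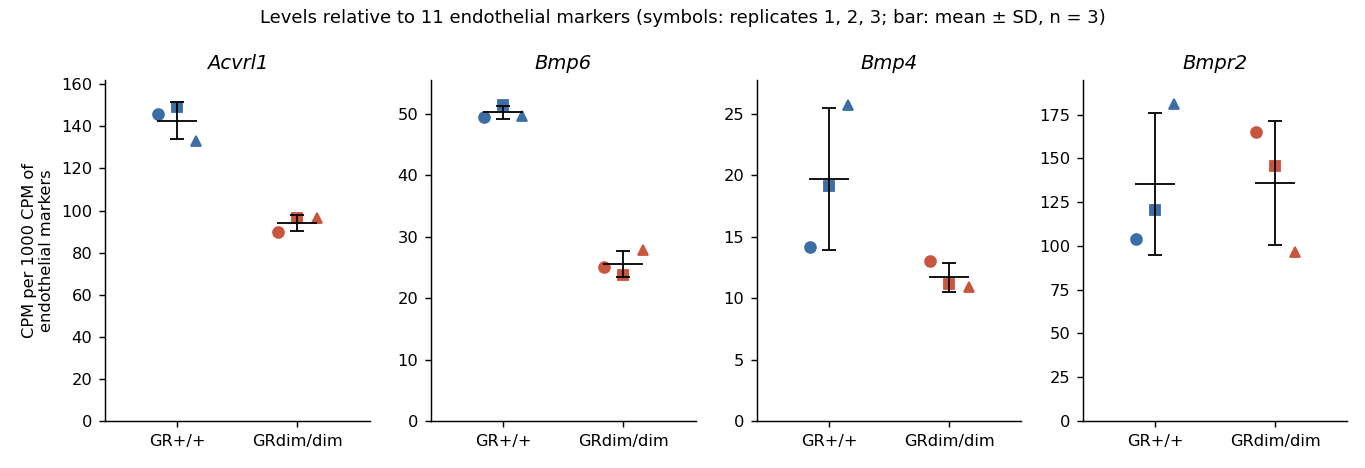
CPM of Acvrl1, Bmp6, Bmp4 and Bmpr2 per 1000 CPM of the 11 endothelial markers in each library (circle, square and triangle for replicates 1, 2 and 3), with the mean ± SD (n = 3) as black bars. Acvrl1 is at 133 to 149 in GR+/+ and 89.7 to 96.6 in GRdim/dim, and Bmpr2 overlaps between genotypes.

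The summed marker levels of 4 types of blood cell lay higher in GRdim/dim without overlap. Summed B cell markers were at 85.0 to 174 CPM in GR+/+ and 206 to 721 CPM in GRdim/dim, T cell markers at 22.2 to 41.8 CPM and 43.2 to 61.2 CPM, NK cell markers at 6.04 to 16.3 CPM and 18.1 to 27.96 CPM, and platelet markers, with Gp1bb at 0 in all libraries, at 17.6 to 26.6 CPM and 27.4 to 37.8 CPM. All B, T and NK cell markers had a positive log2 fold change. Of the 6 platelet markers tested, 4 had a positive and 2 a negative one (Tubb1 and Gp9). Only the B cell sums stayed apart whichever single marker was left out, whereas the others overlapped without Cd3e or Trac (T cells), without Gzma (NK cells), and without Pf4 (11.1 to 21.4 CPM and 15.2 to 20.1 CPM) or Ppbp (platelets). The part of these cells in the differences of Bmp4, Bmp6 and Acvrl1 was not tested. The summed markers of fibroblasts (2126 to 3138 CPM in GR+/+ and 2453 to 2620 CPM in GRdim/dim), and those of smooth muscle, alveolar type 1 and type 2, club and ciliated cells, alveolar macrophages, neutrophils, lymphatic endothelial cells, erythroid cells and cardiomyocytes overlapped between genotypes. Sex was not balanced, since Xist and Y-linked expression marked 1 male and 2 female GR+/+ and 2 male and 1 female GRdim/dim lungs. With a covariate for sex-linked expression in the edgeR fit, the log2 fold change was -1.02 for Bmp6, -0.62 for Bmp4 and -0.62 for Acvrl1, and each kept an unadjusted p-value under 0.05.

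The sequence before the transcription start was read for 7 of the 10 genes (RefSeq, GRCm38.p6) in windows of 250 bases, to give the letters beside the genotype difference for the BMP ligand that was lower and the TGF-beta ligand that overlapped. Tgfb3, Tgfbr3 and Acvrl1 had no promoter entry and were not searched. The windows of Bmp6, Bmpr2 and in part Tgfb2 lie within annotated exons and are not shown. Capitals mark the E-box CACGTG, the only match in these windows to any of the motifs searched. The window of Bmp4 is at chr14:46390670-46390919 on the minus strand and that of Tgfb1 at chr7:25686752-25687001 on the plus strand, both written 5′ to 3′.
Bmp4: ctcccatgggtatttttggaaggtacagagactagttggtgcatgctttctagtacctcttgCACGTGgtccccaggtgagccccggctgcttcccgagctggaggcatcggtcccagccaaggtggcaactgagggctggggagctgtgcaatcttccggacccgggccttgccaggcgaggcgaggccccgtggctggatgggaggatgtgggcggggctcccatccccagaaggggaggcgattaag
Tgfb1: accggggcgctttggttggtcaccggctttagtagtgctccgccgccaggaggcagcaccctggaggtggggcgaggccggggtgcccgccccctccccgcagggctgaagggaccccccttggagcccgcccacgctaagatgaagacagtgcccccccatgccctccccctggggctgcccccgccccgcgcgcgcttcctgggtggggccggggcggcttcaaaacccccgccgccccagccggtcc

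The motifs searched on both strands were the GR half-site AGAACA, the GR palindrome that contains it (AGAACA, any 3 bases, TGTTCT), the SMAD box CAGAC, the SMAD element GGCGCC and the E-box CACGTG, which was added after the sequences had been read. The palindrome was in none of the windows and in 3 of 32851 promoters (0.00913%). AGAACA occurred only before Bmpr2, and in 16.1% of all promoters. CAGAC occurred before Tgfb2, Tgfbr2, Bmp6 and one start of Tgfbr1, and in 42.2% of all promoters. GGCGCC occurred before Bmpr2 and the other start of Tgfbr1, and in 9.59% of all promoters. The E-box was found in the windows of Bmp4, Bmp6 and Tgfb2 and in 6.02% of all promoters, at 188 bases before the start of Bmp4, 127 bases before that of Bmp6 and 51 bases before that of Tgfb2. Tgfb2 is not among the genes that were lower, so the E-box did not separate Bmp4 and Bmp6 from the rest. Acvrl1, which was also lower, was not searched. A match is a run of letters and was not tested for binding.

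The rest of the pathway was read from lists of its known components, which were also chosen with earlier results of these data known. No gene of these lists was a DEG in the main edgeR fit. DESeq2 called 3 of them, Smad9, Acvr2b and Fst, all lower in GRdim/dim, as were 0.879% of the 16150 genes with a DESeq2 adjusted p-value. Fst was also a DEG by edgeR with the covariate for sex-linked expression. Without the filter on low counts, edgeR called Fst, Smad9, Acvr2b and Tgfbi, among others. Of the 13 other type I and type II receptors and co-receptors tested, 5 had a positive and 8 a negative log2 fold change, with a median of -0.12, and 1 was lower at an unadjusted p-value under 0.05. This was Acvr2b, a type II receptor for activins and BMPs, with 8.13, 7.01 and 12.2 CPM in GR+/+ and 4.69, 3.57 and 3.68 CPM in GRdim/dim replicates 1, 2 and 3. Its log2 fold change was -1.20 (SE 0.30), with an adjusted p-value of 0.223 by edgeR and 0.0225 by DESeq2. Endoglin (Eng), the endothelial co-receptor that works with ALK1, had 1577, 1640 and 860.5 CPM in GR+/+ and 989, 1015 and 1070 CPM in GRdim/dim replicates 1, 2 and 3. As for Acvrl1, GR+/+ replicates 1 and 2 were high and replicate 3 was not, and the groups overlapped (log2 fold change -0.41, SE 0.25, unadjusted p-value of 0.140 in the edgeR fit). The type I BMP receptors Bmpr1a, with 105 ± 13.7 CPM in GR+/+ and 103 ± 25.1 CPM in GRdim/dim (SD, n = 3), and Acvr1, with 39.4 ± 4.61 CPM and 42.1 ± 7.03 CPM (SD, n = 3), had log2 fold changes of -0.03 (SE 0.20) and 0.10 (SE 0.19).

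Of the 23 other BMP and GDF ligands, 10 passed the filter on low counts, and 0 of these had an unadjusted p-value under 0.05. Their median log2 fold change was -0.32, with 3 positive and 7 negative. Gdf2, which encodes the ALK1 ligand BMP9, was at or under 0.572 CPM in all libraries and was not tested, and Bmp10 had 0 counts in all of them. Among 12 secreted BMP antagonists tested, 8 had a positive and 4 a negative log2 fold change, with a median of 0.17. Follistatin (Fst), which binds activins and some BMPs, had 13.3, 8.81 and 5.84 CPM in GR+/+ and 2.91, 1.45 and 2.45 CPM in GRdim/dim replicates 1, 2 and 3. For Fst the log2 fold change was -2.04 (SE 0.39), with an adjusted p-value of 0.0965 by edgeR and 6.40e-05 by DESeq2. Of 13 genes of latency and activation of TGF-beta, 10 had a positive and 3 a negative log2 fold change, with a median of 0.34. In that list 3 genes were higher at an unadjusted p-value under 0.05 (4.91% of all genes tested were), the latent TGF-beta binding protein Ltbp1, the activator thrombospondin 1 (Thbs1) and Emilin1, and each overlapped between genotypes.

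The SMAD genes differed in direction. Smad9, a BMP-dependent SMAD that is itself induced by BMP, had 26.0, 28.6 and 27.1 CPM in GR+/+ and 11.3, 15.99 and 8.07 CPM in GRdim/dim replicates 1, 2 and 3. All GRdim/dim libraries were far below the narrow range of GR+/+. For Smad9 the log2 fold change was -1.20 (SE 0.26), with an adjusted p-value of 0.132 by edgeR and 0.00229 by DESeq2. Smad1, which carries the same signal, had 58.7, 52.9 and 40.9 CPM in GR+/+ and 93.2, 60.9 and 73.9 CPM in GRdim/dim, higher without overlap (log2 fold change 0.58, SE 0.21, adjusted p-value of 0.417 by edgeR). The unadjusted p-value of Smad1 was 0.0184, and 0.0627 with the covariate for sex-linked expression. Smad2, Smad3, Smad4 and Smad5 had log2 fold changes of 0.13, 0.32, -0.12 and 0.13 and overlapped.

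Smad7, the inhibitory SMAD that is induced by both branches and limits them, had 225, 198 and 154 CPM in GR+/+ and 98.9, 129 and 146 CPM in GRdim/dim replicates 1, 2 and 3. Its log2 fold change was -0.62 (SE 0.21), with an adjusted p-value of 0.366 by edgeR, and the highest GRdim/dim library was close to the lowest GR+/+ library. Smad6, the inhibitor of the BMP branch, averaged 594 ± 135 CPM in GR+/+ and 447 ± 163 CPM in GRdim/dim (SD, n = 3), and overlapped. Over the 8 inhibitory SMADs and repressors the median log2 fold change was -0.17, with 3 positive and 5 negative, and Smad7 was lower and Pmepa1 higher at an unadjusted p-value under 0.05. The BMP-responsive list of 10 genes had 3 lower and 0 higher at an unadjusted p-value under 0.05 (Smad9, Smad7 and Id4), against 4.68% lower and 4.91% higher over all genes tested, and a median log2 fold change of -0.28. Id4, an inhibitor of DNA binding, had 23.6, 21.7 and 26.8 CPM in GR+/+ and 14.8, 16.1 and 20.9 CPM in GRdim/dim, with a log2 fold change of -0.48 (SE 0.21). By edgeR its unadjusted p-value was 0.0455 and its adjusted p-value 0.505. The unadjusted p-value of Id4 was under 0.05 in 5 of 12 alternatives. The classic BMP targets of the same family overlapped between genotypes, with log2 fold changes of 0.12 (SE 0.19) for Id1, -0.15 (SE 0.15) for Id2 and -0.05 (SE 0.23) for Id3.

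Among 12 TGF-beta-responsive genes, 8 had a positive and 4 a negative log2 fold change, with a median of 0.30, and 2 were higher and 1 lower at an unadjusted p-value under 0.05, compared with 4.91% and 4.68% of all genes tested. Tgfbi, a matrix protein named for its induction by TGF-beta, had 134.5, 113 and 80.7 CPM in GR+/+ and 243, 138 and 175 CPM in GRdim/dim replicates 1, 2 and 3. It was higher in every GRdim/dim library, with a log2 fold change of 0.76 (SE 0.25) and an adjusted p-value of 0.360 by edgeR. Pmepa1, a TGF-beta-induced inhibitor of the pathway, had 65.4, 63.7 and 42.1 CPM in GR+/+ and 69.4, 83.7 and 96.3 CPM in GRdim/dim, with a log2 fold change of 0.54 (SE 0.21). The adjusted p-value of Pmepa1 was 0.448 by edgeR, and its unadjusted p-value was under 0.05 in 8 of 12 alternatives. The gene that was lower is Smad7, which the BMP-responsive list also holds.

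**Figure D5:**
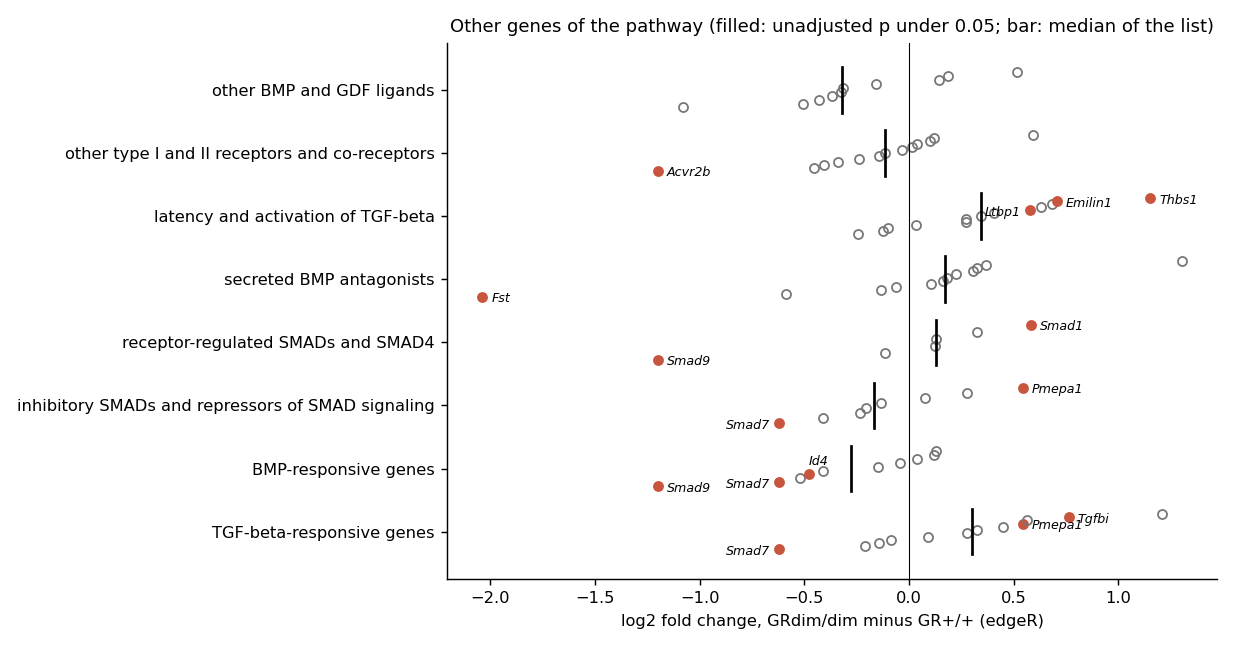
Log2 fold change of GRdim/dim against GR+/+ by edgeR (x axis) for each tested gene of the pathway lists (rows), with filled symbols and names for genes at an unadjusted p-value under 0.05 and a black bar at the median of each list. The medians run from -0.32 for the other BMP and GDF ligands to 0.34 for latency and activation of TGF-beta, and no gene shown is a DEG by edgeR.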

How the data were processed

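Per the labels, 3 lungs per genotype were sequenced after HS, and genotype and number were taken from the sample titles. Raw counts of reads on each gene, whole numbers without normalization, were deposited by the authors beside each gene's length in bases, another unit that was used only for levels per kilobase. The submitters' processing notes name mm10 and DESeq2, while the aligner, the counting tool and the use of strand are not given in the sources used here. The authors' own comparisons were not used.

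The quasi-likelihood test of edgeR 4.0.16 (R 4.3.3) was run on genes kept by filterByExpr, with TMM factors, a robust glmQLFit and Benjamini-Hochberg adjustment. SEs are the absolute log2 fold change divided by the square root of F. DESeq2 1.42.0 was an alternative, as were RLE scaling, other filters, a replicate block, a covariate for sex-linked expression and each library left out. Libraries of one genotype differed by more than sampling noise. Named were all 10 members and, from the pathway lists, genes at an unadjusted p-value under 0.05 without overlap, Eng, Bmpr1a, Acvr1, the SMADs and Id1 to Id3. Other genes were named after their values were seen. The members and lists were chosen with earlier results of these data known.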

Additional observations from a re-analysis of the deposited data

How the results depend on the processing

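The log2 fold changes of Bmp6 (-1.16 to -0.86), Bmp4 (-0.87 to -0.61) and Acvrl1 (-0.82 to -0.48) were negative under each of 12 alternatives, and those of Bmp6 and Bmp4 had an unadjusted p-value under 0.05 in all 12, that of Acvrl1 in 9. Over these alternatives the adjusted p-value was 0.000266 to 0.297 for Bmp6, 0.0247 to 0.473 for Bmp4 and 0.125 to 0.747 for Acvrl1. Bmp4 and Bmp6 were DEGs without a filter on low counts and with DESeq2, so that 2 of the 10 genes were called there and 0 in the edgeR fit. In the edgeR fit, 28 of 16568 genes tested were DEGs (12 higher, 16 lower). Without a filter the number was 522 of 31368 (255 higher, 267 lower). With DESeq2 it was 274 (132 higher, 142 lower) of 16150 genes with an adjusted p-value. With 1 library left out there were 4 to 22 DEGs (1 to 13 higher, 3 to 12 lower) among 16843 to 17148 genes tested, the fewest without GR+/+ replicate 2. In these fits 2 to 4 of the 10 genes had an unadjusted p-value under 0.05, and the share of all genes at that p-value is not given. The cause of these shifts was not tested.

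Whether the replicate numbers pair the mice is not given in the labels. Same-numbered libraries correlated by 0.218, 0.0361 and -0.0548 in their deviations for replicates 1, 2 and 3. GR+/+ replicates 1 and 2 were each most like the GRdim/dim library of the same number. GR+/+ replicate 3 was most like GRdim/dim replicate 2. Each of these matches joined lungs of the same sex by Xist and Y-linked expression, and the part of sex in them was not tested. Such correlations between so few libraries cannot decide on a pairing. With a replicate block 34 of 16568 genes tested were DEGs (13 higher, 21 lower), 0 of them among the 10. Of the 10, 3 had an unadjusted p-value under 0.05, and the share of all genes at that p-value is not given for this fit.

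Signs turned only for small log2 fold changes, namely for Tgfbr2 (-0.066) and Bmpr1a (0.011) with the covariate for sex-linked expression and for Tgfbr3 with at least 10 counts in every library (0.0016), with the replicate block (0.016) and relative to the endothelial markers (0.041, or 0.20 without Cldn5 and Car4, both added after seeing the data). With 1 library left out the range was -0.11 to 0.35 for Tgfb1, -0.24 to 0.035 for Tgfb2, -0.20 to 0.25 for Tgfbr2, -0.21 to 0.16 for Tgfbr3, -0.10 to 0.23 for Bmpr2, -0.20 to 0.14 for Bmpr1a, -0.018 to 0.21 for Smad2 and -0.33 to 0.12 for Id3. The intervals for the 10 genes rest on 3 mice per genotype, and the parts of depth and of the spread between mice in their width were not separated.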
